A study of Mus musculus with 6 samples.

Results

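The 40 cell cycle and proliferation genes were taken by symbol from the deposited expression tables, which list 24421 genes, and all 40 were found. They hold the cyclins, cyclin-dependent kinases (CDKs), the MCM helicase, nucleotide synthesis enzymes, mitotic proteins, 2 transcription factors and 2 CDK inhibitors, and were read to see whether astrocytes, or other cells isolated with them, carry more transcripts of the dividing cell 2 days after microglia are killed. The samples are astrocytes isolated by magnetic-activated cell sorting (MACS) from the hippocampus of adult male Siglechdtr/dtr mice on the C57BL/6 strain. In these mice the diphtheria toxin receptor is placed in the gene Siglech, which is read mainly in microglia, so that diphtheria toxin (DT) kills those cells. The mice received PBS or DT (50 µg/kg, intraperitoneal) and were sampled 2 days later. The PBS mice carry the same homozygous allele, which lowers Siglec-H itself, so the groups differ by the injection. Each group has 3 libraries, each from a pool of 2 mice. The pools came from 3 independent experiments, but the labels do not tie a replicate number to an experiment. Cells bound by anti-CD11b beads were first removed, and the remainder was bound by beads against astrocyte cell surface antigen-2 (ACSA-2).

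Cells enter the cycle when D-type cyclins with CDK4 or CDK6 release the E2F factors from the retinoblastoma proteins, after which E-type cyclins with CDK2 start DNA replication and the MCM ring unwinds the DNA. Cyclin B with CDK1 then drives mitosis, and the anaphase-promoting complex ends it. In quiescent cells the DREAM complex holds the late genes silent through CHR elements (cell cycle genes homology regions), and the same promoters often hold CCAAT boxes, which bind the activator NF-Y, while CDK inhibitors such as p27 hold the kinases. Most astrocytes of the adult hippocampus are quiescent, whereas oligodendrocyte precursors and the progenitors of the dentate gyrus divide there throughout life.

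Promoter sequences show the letters through which these genes are known to be switched together. RefSeq windows (GRCm38.p6, which has the coordinates of mm10) were matched for 32 of the 40 genes, with 35 windows of 250 bases before the start site. Ccna2, Ccne2, Ccnd1, Ccnd2, Mcm4, Aurkb, Tpx2 and Foxm1 had no window. The 4 windows below belong to genes described further on, and were chosen because they differ in the motifs they hold. Capitals mark a CHR (TTTGAA, or its form with a CpG, TTCGAA), the CCAAT box or an E2F word (TTTCCCGC, TTTGGCGC, TTTCGCGC or TTTGCCGC), each searched on both strands, so that ATTGG and TTCAAA are matches read backwards and 2 E2F words may overlap.
Mki67, chr7:135716380-135716629, minus strand: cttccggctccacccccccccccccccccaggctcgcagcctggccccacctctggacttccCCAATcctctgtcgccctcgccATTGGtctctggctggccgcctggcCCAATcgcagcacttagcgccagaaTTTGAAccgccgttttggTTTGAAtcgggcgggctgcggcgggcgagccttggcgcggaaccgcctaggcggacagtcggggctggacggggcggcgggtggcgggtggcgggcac
Top2a, chr11:99024190-99024439, minus strand: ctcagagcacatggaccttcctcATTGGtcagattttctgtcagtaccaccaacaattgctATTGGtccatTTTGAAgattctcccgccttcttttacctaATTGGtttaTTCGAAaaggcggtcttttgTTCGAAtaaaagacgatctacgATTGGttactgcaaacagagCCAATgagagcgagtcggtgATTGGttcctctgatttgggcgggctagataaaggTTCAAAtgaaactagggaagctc
Ccnb2, chr9:70421555-70421804, minus strand: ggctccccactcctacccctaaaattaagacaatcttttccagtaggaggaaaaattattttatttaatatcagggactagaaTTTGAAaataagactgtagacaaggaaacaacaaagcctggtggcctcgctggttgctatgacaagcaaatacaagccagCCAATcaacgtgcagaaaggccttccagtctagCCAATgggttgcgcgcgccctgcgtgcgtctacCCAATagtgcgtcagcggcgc
Mcm5, chr8:75109259-75109508, plus strand: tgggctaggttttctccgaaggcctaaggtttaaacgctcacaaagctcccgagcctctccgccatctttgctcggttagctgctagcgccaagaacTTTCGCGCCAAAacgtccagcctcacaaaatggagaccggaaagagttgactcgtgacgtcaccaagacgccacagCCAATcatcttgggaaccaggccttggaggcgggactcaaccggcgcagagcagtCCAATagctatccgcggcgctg
The Mki67 window held 2 CHR and 3 CCAAT words, that of Top2a 4 and 6, and that of Ccnb2 1 and 3, with no E2F word in any of them. The Mcm5 window held 2 CCAAT words and 2 overlapping E2F words, and no CHR. Over the 35 windows, a CCAAT box was present in 26 (74.3%), against 33.8% of all 32851 windows in the table. A CHR was present in 10 (28.6%, against 17.1% of all windows), and an E2F word in 5 (14.3%, against 1.86%). Among the 14443 windows of genes tested here, the shares were 34.8% for CCAAT, 12.1% for CHR and 2.98% for E2F. These matches are descriptions of letters, not of bound sites.

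The libraries held between 21704891 and 32933975 reads, as read from the step sizes in the files, and the deepest library of each group was replicate 2. CPM, the reads of a gene scaled to the size of the library, is compared within a gene, and TPM, which also takes gene length into account, between genes. The 12 astrocyte markers summed to between 28324 and 29926 TPM in PBS and between 28741 and 30687 TPM in DT, so the ranges overlapped. Slc1a2, Slc1a3 and Aldoc made up most of that sum, at 9441, 7414 and 5128 TPM in PBS. limma called 0 of the 12, and DESeq2 called 1 higher, Atp1b2 (adjusted p = 0.0232). Aqp4 had 2871 CPM in DT replicate 3 and at most 1304 CPM in any other library. Microglial markers summed to between 284 and 349 TPM in PBS and between 156 and 175 TPM in DT, with 7 of 12 called lower by limma and Siglech at 0 in all 3 DT libraries. In these bulk samples, fewer cells of a type and less RNA per cell cannot be told apart. Across the 15137 genes with a mean of at least 0.5 CPM, limma called 84 genes higher (0.555%) and 24 lower (0.159%) at an adjusted p under 0.05.

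All 40 cell cycle genes passed the filter on low values, and none was called in either direction, against the 0.555% and 0.159% of all genes tested. The smallest adjusted p with limma was 0.184, for Mcm4. edgeR's quasi-likelihood test and DESeq2, run on the recovered reads, also called 0 of the 40, with smallest adjusted p-values of 0.200 and 0.0646, against 0.733% and 2.15% of all genes in either direction. At an unadjusted p under 0.05, limma had 9 of the 40 (22.5%), each with the higher mean in DT, against 5.91% of all genes on the higher side. These were Mcm4, Mki67, Ccnd1, Top2a, Mcm5, Ccnb2, Ccnb1, Plk1 and Ccne2. edgeR and DESeq2 had 8 each at that threshold in either direction, against 10.3% and 9.77% of all genes (higher side: 5.95% and 5.69%). Where single libraries were left out, the share of all genes at that threshold was not computed, so the counts have no background beside them. The 9 became 4 without PBS replicate 1, 5 without DT replicate 2 and 12 without PBS replicate 3. In that last fit Mki67 alone was called, with a log2 fold change of 0.61 and an adjusted p of 0.0460 (limma). The call of Mki67 therefore depended on PBS replicate 3, and no other omission gave a call.

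The log2 fold change, DT minus PBS, was above 0 for 34 of the 40 genes (85.0%), against 48.7% of all genes tested. Its median was 0.26 over the 40 and -0.01 over all genes tested, and it ran from -0.19 for Foxm1 to 1.26 for Cdk1. For 10 genes (25.0%) the lowest DT library exceeded the highest PBS library, as it did for 8.75% of all genes tested. These were Mki67, Top2a, Ccnb1, Ccnb2, Ccnd1, Mcm2, Mcm4, Mcm5, Plk1 and Tpx2. Mcm7 was the single gene with every DT library below every PBS library, an order seen for 7.57% of all genes tested. The 10 genes with a mean under 2 CPM had a median of 0.63, and all 10 lay above 0, while the 30 genes at 2 CPM or more had a median of 0.13, with 24 above 0. Of all 1772 genes tested under 2 CPM, 54.0% lay above 0, with a median of 0.05. Many of the 40 genes are known to be switched together, so they are not independent observations, and a single library can move many at once.

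**Figure D1:**
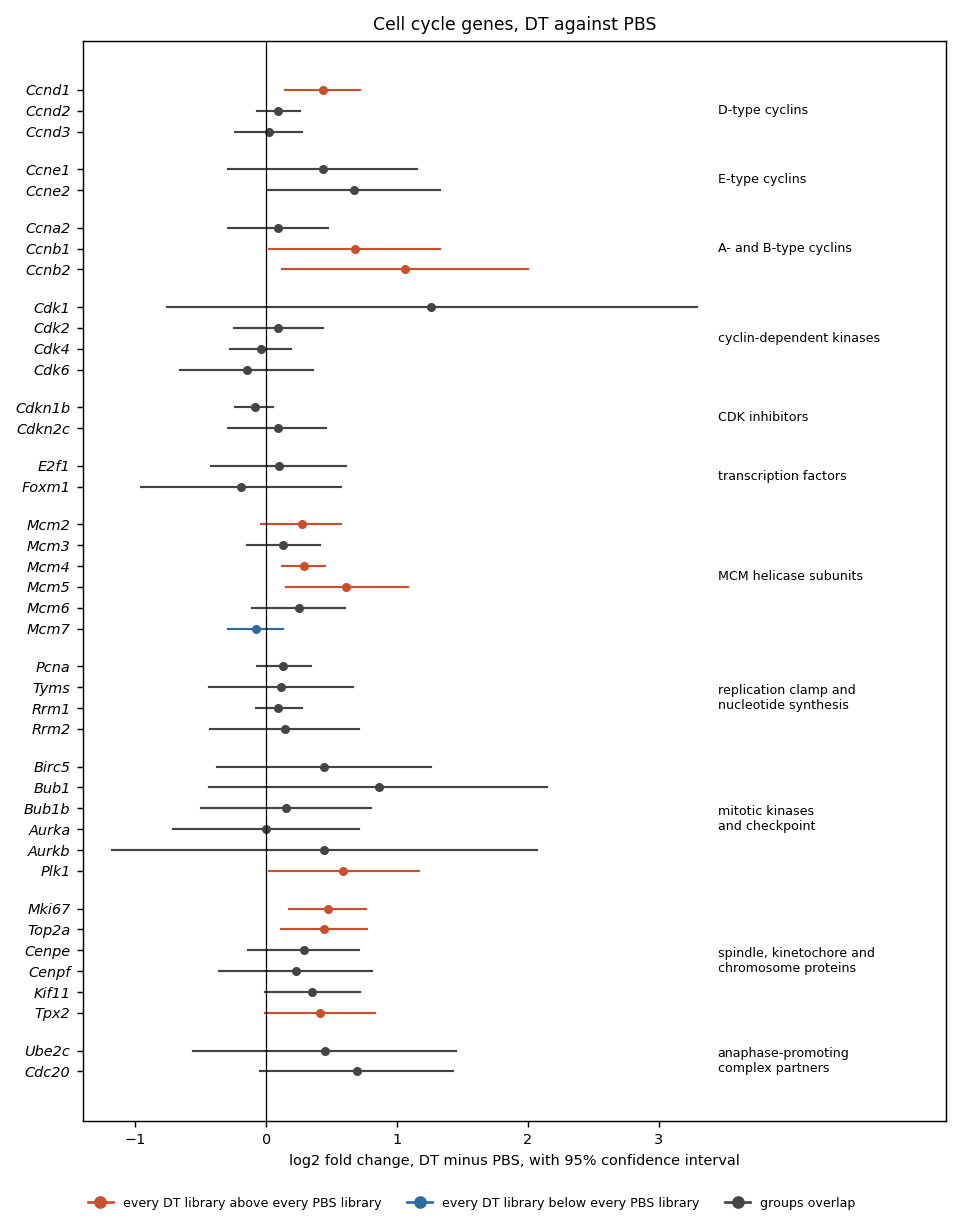
Log2 fold change of each of the 40 genes, DT minus PBS on the log2(CPM + 0.1) scale, with its 95% confidence interval from limma, ordered by role. Red marks the 10 genes with every DT library above every PBS library, blue the 1 gene with the reverse order, and the intervals are widest for genes with few reads, such as Cdk1, Aurkb and Bub1.

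The genes spanned a wide range of levels in TPM. Cdkn1b, which encodes the CDK inhibitor p27, stood first at 124 ± 4.27 TPM (SD, n = 3), at the 90.9th percentile of genes tested. Pcna followed at 89.9 ± 6.26 TPM (SD, n = 3) and Cdk4 at 58.7 ± 5.35 TPM (SD, n = 3), each step larger than the spread. Ccnd3, Ccnd2, Rrm1 and Mcm4 followed between 29.4 and 25.6 TPM, and neighbours among them lay within their spread or close to it. The lowest were Ccnb1 at 1.33 ± 0.0733 TPM (SD, n = 3), Ccnb2 at 1.27 ± 0.724 TPM (SD, n = 3), Cdk1 at 0.682 ± 0.607 TPM (SD, n = 3) and Bub1 at 0.356 ± 0.238 TPM (SD, n = 3). The levels of Ccnb1, Ccnb2 and Cdk1 could not be ordered beyond their spread, and neither could those of Cdk1 and Bub1.

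**Figure D2:**
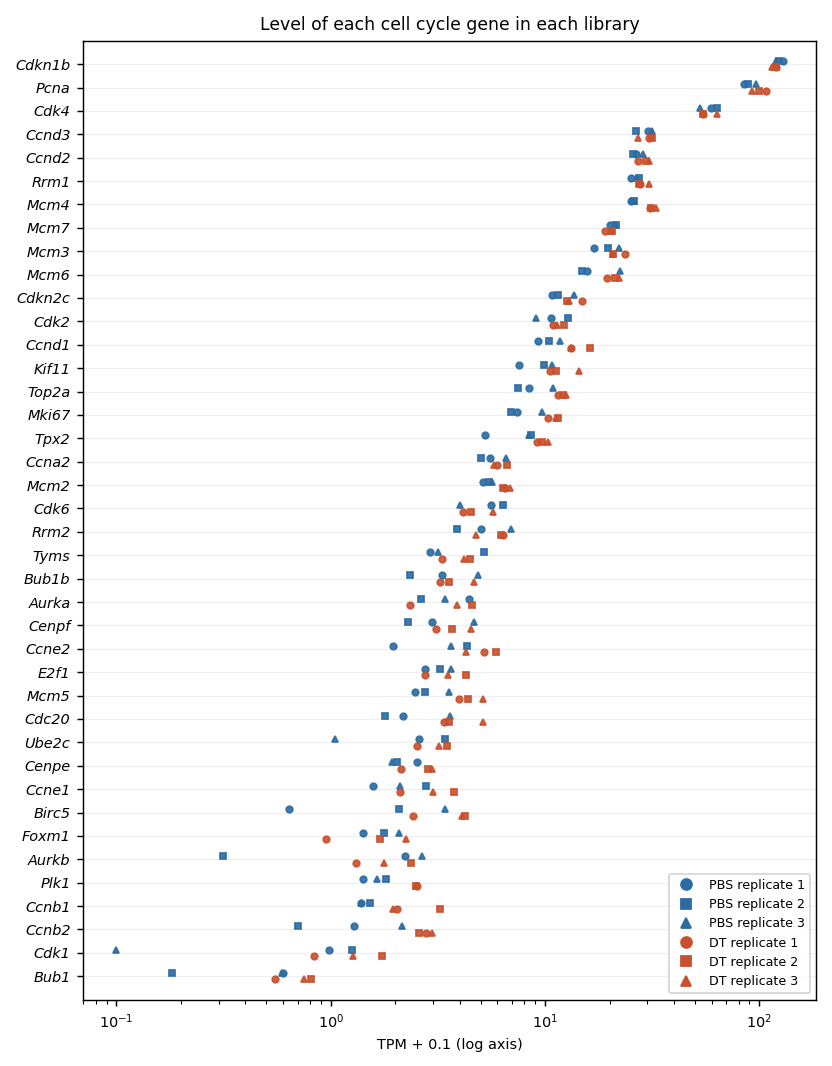
TPM plus 0.1 on a log axis for each of the 40 genes in each of the 6 libraries, with genes ordered by their mean in PBS. Blue marks are PBS libraries and red marks DT libraries, with shapes for replicates 1 to 3, and the span runs from Cdkn1b near 124 TPM to Bub1 near 0.356 TPM in PBS.

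Of the D-type cyclins, which carry growth signals to CDK4 and CDK6, Ccnd1 alone had groups that did not overlap, and none was called. Ccnd1 (chr7:144929931-144939925, minus strand, mm10) had 12.2, 13.1 and 15.1 CPM in PBS replicates 1 to 3 and 17.2, 20.4 and 16.7 CPM in DT replicates 1 to 3. All 3 DT libraries lay above the highest PBS library. The log2 fold change was 0.43 (SE 0.13, 95% interval 0.14 to 0.72, adjusted p = 0.286). Ccnd3, the D-type cyclin with the highest TPM, had 20.9, 17.8 and 21.6 CPM in PBS and 21.2, 21.3 and 18.4 CPM in DT. The groups overlapped throughout, and the log2 fold change was 0.02 (95% interval -0.24 to 0.27). For Ccnd2 the log2 fold change was 0.09 (95% interval -0.07 to 0.26). In TPM, Ccnd1 averaged 10.4 in PBS and 14.1 in DT, which stayed below the 27.0 and 29.0 TPM of Ccnd2.

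For all 4 cyclin-dependent kinases the groups overlapped. Cdk4 had 27.9, 28.7 and 24.3 CPM in PBS and 25.4, 24.4 and 28.7 CPM in DT, with a log2 fold change of -0.04 (95% interval -0.28 to 0.19). Cdk6 ranged from 3.31 to 5.21 CPM over the 6 libraries, and its log2 fold change was -0.15 (95% interval -0.66 to 0.36). Cdk2, the partner of cyclins E and A, had a log2 fold change of 0.09 (95% interval -0.25 to 0.43). Cdk1, the kinase of mitotic entry, rested on 20, 38 and 0 reads in PBS and 17, 49 and 26 reads in DT. The library with 0 reads was PBS replicate 3, where a count of 0 allows up to 0.138 CPM. The log2 fold change of 1.26 had an interval from -0.76 to 3.29, and it was 0.10 without PBS replicate 3.

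E-type cyclins bring CDK2 to the origins of replication. Ccne2 had 2.03, 4.31 and 3.72 CPM in PBS and 5.37, 5.95 and 4.27 CPM in DT, so that DT replicate 3 lay just under PBS replicate 2. The difference on the log2 scale was 0.67 (SE 0.29, 95% interval 0.01 to 1.33, adjusted p = 0.473), and 0.35 without PBS replicate 1. Ccne1 ranged from 1.01 to 1.78 CPM in PBS and from 1.40 to 2.40 CPM in DT, with a log2 fold change of 0.43 (95% interval -0.29 to 1.15) that was 0.24 without PBS replicate 1 and 0.26 without DT replicate 2. The transcription factors upstream of these genes overlapped between groups. E2f1, an activator of replication genes, had 2.58, 2.89 and 3.35 CPM in PBS and 2.53, 3.83 and 3.18 CPM in DT, and its log2 fold change was 0.10 (95% interval -0.42 to 0.61). Foxm1, an activator of mitotic genes, ranged from 2.03 to 2.99 CPM in PBS and from 1.31 to 3.18 CPM in DT. Its log2 fold change of -0.19 (95% interval -0.96 to 0.57) became 0.14 without DT replicate 1.

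Of the 6 MCM subunits, which form the replicative helicase, 5 had a log2 fold change above 0 and none was called. Mcm4 (chr16:15623897-15637400, minus strand, mm10) had 31.4, 31.1 and 31.8 CPM in PBS and 38.4, 37.1 and 39.9 CPM in DT, on 681 to 1141 reads per library. The PBS libraries were within 1 CPM of each other, and every DT library lay well above them. On the log2 scale the difference was 0.29 (SE 0.07, 95% interval 0.12 to 0.45), which is 1.22-fold, and its unadjusted p of 0.00340 was the smallest among the 40 genes by limma. Mcm5 (chr8:75109569-75128439, plus strand, mm10) had 2.85, 3.08 and 4.13 CPM in PBS and 4.67, 4.91 and 5.84 CPM in DT. The groups did not overlap, and the log2 fold change was 0.61 (SE 0.20, 95% interval 0.15 to 1.08, adjusted p = 0.354). Mcm2 likewise had higher values in every DT library, from 5.89 to 6.43 CPM in PBS and from 7.02 to 7.72 CPM in DT, with an interval of -0.04 to 0.57. Mcm7 ran the other way, with 16.8, 17.2 and 17.4 CPM in PBS and 15.8, 16.3 and 16.3 CPM in DT. The difference was -0.08 on the log2 scale (95% interval -0.29 to 0.13, adjusted p = 0.805). For Mcm3 and Mcm6 the groups overlapped, with log2 fold changes of 0.13 and 0.25. In TPM, Mcm4 averaged 25.6 in PBS and Mcm5 averaged 2.82, so subunits of a single ring differed widely in transcript level.

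All 4 genes of the replication clamp and of nucleotide synthesis overlapped between groups. Pcna, the sliding clamp of DNA polymerase, had 37.0, 37.5 and 41.6 CPM in PBS and 46.5, 41.7 and 39.3 CPM in DT. DT replicate 3 lay within the PBS range, and the log2 fold change was 0.13 (95% interval -0.07 to 0.34, adjusted p = 0.660). Rrm1 and Rrm2, the subunits of ribonucleotide reductase, had log2 fold changes of 0.09 (95% interval -0.08 to 0.27) and 0.14 (95% interval -0.43 to 0.71). Tyms, thymidylate synthase, had 0.11 (95% interval -0.44 to 0.66). Pcna and Tyms, like Ccnd3, Ccnb1 and Ccnb2, have annotated pseudogenes with which they could share reads, so their values are less certain.

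None of the 3 genes of A- and B-type cyclins, which act from S phase to mitosis, was called. Ccnb1 (chr13:100778650-100786570, minus strand, mm10) had 1.06, 1.11 and 1.06 CPM in PBS and 1.57, 2.40 and 1.48 CPM in DT, on 23 to 74 reads. Every DT library lay above the PBS libraries, with DT replicate 2 the farthest. The log2 fold change of 0.68 had an SE of 0.29 and a 95% interval of 0.02 to 1.33 (adjusted p = 0.466). Ccnb2 (chr9:70407692-70421547, minus strand, mm10) had 0.645, 0.332 and 1.10 CPM in PBS and 1.44, 1.30 and 1.53 CPM in DT, on 11 to 40 reads. The PBS libraries were spread and the DT libraries close together. The log2 fold change was 1.06 (SE 0.41, 95% interval 0.12 to 2.00, adjusted p = 0.426), and it was 0.68 without PBS replicate 2. Ccna2 had 5.34, 4.67 and 6.25 CPM in PBS and 5.76, 6.11 and 5.37 CPM in DT. The DT values fell within the PBS range, with a log2 fold change of 0.09 (95% interval -0.29 to 0.47).

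Mki67, which encodes the proliferation antigen Ki-67 on mitotic chromosomes, and Top2a, the topoisomerase that untangles sister chromatids, were the best-counted genes of mitosis. Mki67 (chr7:135689784-135716361, minus strand, mm10) had 25.5, 23.1 and 33.0 CPM in PBS and 35.5, 38.2 and 37.9 CPM in DT, on 553 to 1177 reads per library. PBS replicate 3 stood closer to the DT libraries than to the other PBS libraries. The log2 fold change was 0.47 (SE 0.13, 95% interval 0.17 to 0.76, adjusted p = 0.240), which is 1.38-fold. Top2a (chr11:98992943-99024189, minus strand, mm10) had 15.1, 12.9 and 19.3 CPM in PBS and 20.7, 20.9 and 21.9 CPM in DT. PBS replicate 3 was again the highest PBS library. On the log2 scale the difference was 0.44 (SE 0.14, 95% interval 0.11 to 0.77, adjusted p = 0.349). In TPM, Mki67 averaged 7.90 ± 1.49 in PBS and 10.9 ± 0.649 in DT (SD, n = 3 each).

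Of the other spindle and kinetochore proteins, all 4 had log2 fold changes above 0, and the groups were apart for Tpx2 alone. Kif11, the motor that separates spindle poles, had 12.6, 15.8 and 17.6 CPM in PBS and 17.4, 18.0 and 23.2 CPM in DT, where DT replicate 1 lay just under PBS replicate 3. Its log2 fold change was 0.35 (95% interval -0.01 to 0.72, adjusted p = 0.494). Tpx2, which nucleates spindle microtubules, had 7.50, 11.9 and 11.9 CPM in PBS and 13.1, 13.4 and 14.4 CPM in DT. PBS replicate 1 stood apart as low, and the log2 fold change of 0.41 (95% interval -0.0099 to 0.83, adjusted p = 0.489) was 0.19 without it. Cenpe and Cenpf, kinetochore proteins, had log2 fold changes of 0.29 (95% interval -0.14 to 0.71) and 0.23 (95% interval -0.36 to 0.81).

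**Figure D3:**
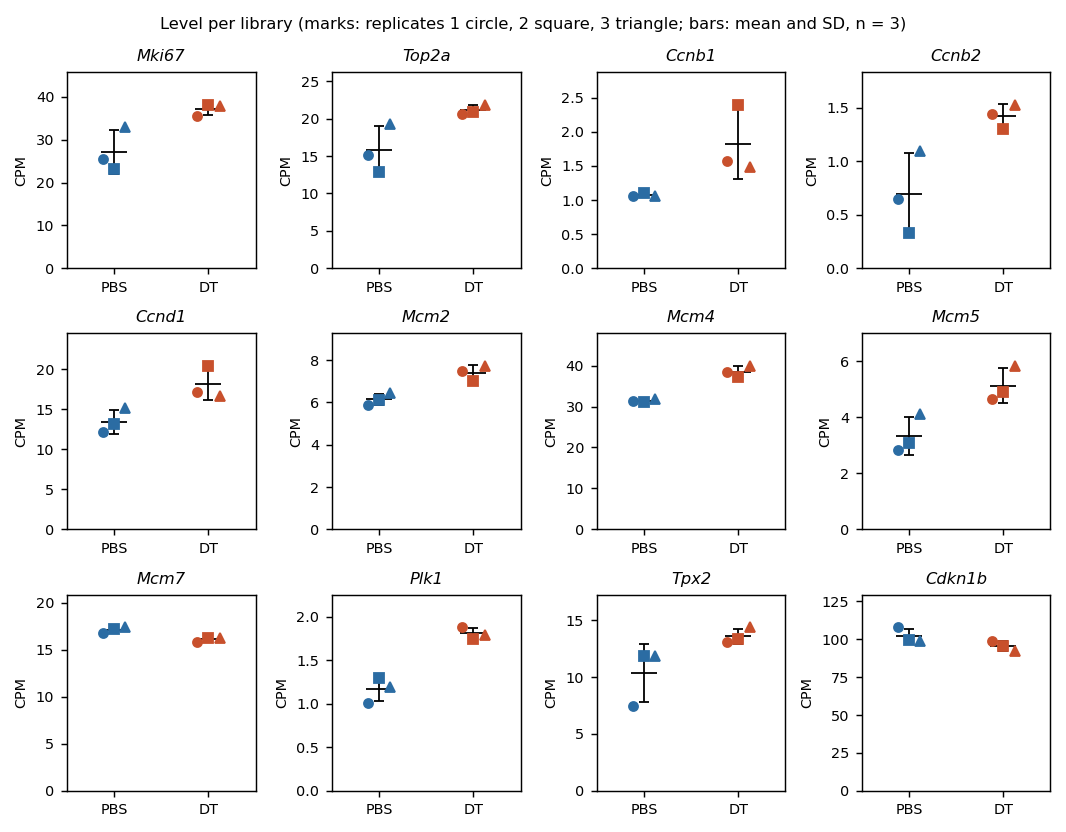
CPM per library for the 11 genes whose groups did not overlap, and for Cdkn1b, the highest of the 40 by TPM, with the mean and SD of 3 libraries per group and each axis starting at 0. Mcm4 sits between 31.1 and 31.8 CPM in PBS and between 37.1 and 39.9 CPM in DT, while for Mki67 PBS replicate 3, at 33.0 CPM, comes close to the DT libraries.

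Among the mitotic kinases and the checkpoint, Plk1 alone had groups that did not overlap. Plk1 (chr7:122159439-122169873, plus strand, mm10), the polo-like kinase of mitotic entry, had 1.01, 1.30 and 1.19 CPM in PBS and 1.88, 1.75 and 1.79 CPM in DT, on 22 to 54 reads. The DT libraries lay close together and above PBS. Plk1 had a mean log2 difference of 0.59 (SE 0.25, 95% interval 0.02 to 1.17, adjusted p = 0.466). Bub1b, a checkpoint protein and the highest of these genes by TPM, had 4.10, 2.77 and 6.02 CPM in PBS and 3.97, 4.26 and 5.63 CPM in DT. All 3 DT values fell within the PBS range, with a log2 fold change of 0.15 (95% interval -0.50 to 0.80). Aurka, the kinase of the spindle poles, had a mean of 2.31 CPM in PBS and 2.32 CPM in DT (95% interval of the log2 difference -0.71 to 0.71). Aurkb and its partner in the chromosomal passenger complex, Birc5 (survivin), each had a log2 fold change of 0.44, with intervals of -1.18 to 2.07 and -0.38 to 1.26. For Birc5 it was 0.11 without PBS replicate 1, 0.71 without PBS replicate 3 and 1.06 in TPM. PBS replicate 2 held 5 reads of Aurkb and 4 of Bub1, a checkpoint kinase, far fewer than the other libraries. Without it the log2 fold change of Aurkb was -0.48, and that of Bub1 went from 0.86 to 0.20.

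The partners of the anaphase-promoting complex were also low. Cdc20, its activator, had 1.29, 1.02 and 2.16 CPM in PBS and 2.05, 2.08 and 3.05 CPM in DT. PBS replicate 3 lay above DT replicates 1 and 2, and the log2 fold change was 0.69 (95% interval -0.05 to 1.43, adjusted p = 0.514). Ube2c, the ubiquitin-conjugating enzyme of the complex, ranged from 7 to 35 reads and had a log2 fold change of 0.45 (95% interval -0.56 to 1.45), which was 0.01 without PBS replicate 3.

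For both CDK inhibitors the groups overlapped. Cdkn1b had 108, 99.7 and 98.6 CPM in PBS and 99.1, 95.3 and 92.4 CPM in DT. The ranges overlapped at DT replicate 1, and the log2 fold change was -0.09 (SE 0.06, 95% interval -0.24 to 0.05, adjusted p = 0.665). Cdkn2c, which encodes p18 and binds CDK4 and CDK6, ranged from 6.26 to 8.68 CPM in PBS and from 6.85 to 8.29 CPM in DT, with a log2 fold change of 0.09 (95% interval -0.29 to 0.46).

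The genes were also grouped by phase. The 18 genes of mitosis were the A- and B-type cyclins, Cdk1, kinases and checkpoint, spindle proteins and partners of the anaphase-promoting complex. They lay at a median of 0.44 on the log2 scale. Of these, 17 were above 0 (94.4%, against 48.7% of all genes tested) and 6 had every DT library higher (33.3%, against 8.75%). The 13 genes of replication (E-type cyclins, Cdk2, MCM subunits, clamp and nucleotide synthesis) had a median of 0.14, with 12 above 0 (92.3%). Every DT library was higher for 3 of them (23.1%) and lower for 1, against 8.75% and 7.57% of all genes tested. The difference between these medians was not tested. The TPM of the mitotic genes summed to 58.8, 58.5 and 76.1 in PBS and to 74.8, 88.5 and 92.2 in DT, so that DT replicate 1 lay below PBS replicate 3. DT replicate 1 was the lowest DT library for 14 of the 18 genes. PBS replicate 3 was the highest PBS library for 10 of them, and PBS replicate 2 the lowest for 10. The replication genes summed to 216, 234 and 249 TPM in PBS and to 264, 262 and 258 TPM in DT, with no overlap. The ratio of the DT to the PBS mean was 1.32 for the mitotic and 1.12 for the replication genes.

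**Figure D4:**
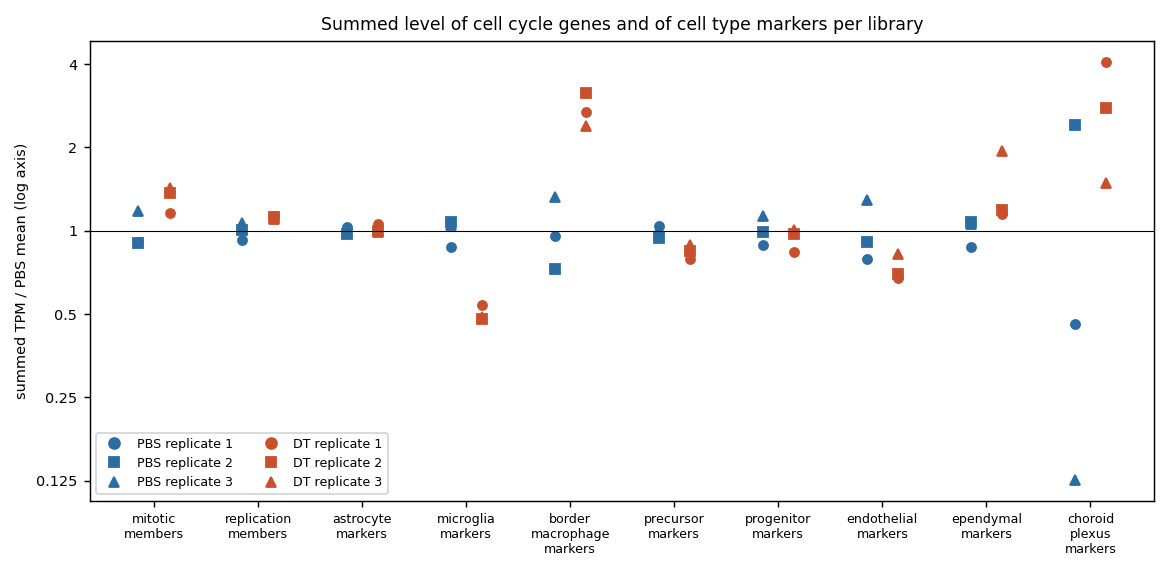
Summed TPM per library, divided by the PBS mean of the same list, on a log axis, for the mitotic and replication genes and for marker lists of cell types. Blue marks are PBS and red marks DT libraries, and the mitotic genes, at 1.32 times the PBS mean on average, lie below the border macrophage markers at 2.74 times and the choroid plexus markers at 2.78 times. Most of the choroid plexus sum is Ttr.

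Whether any cells divided, and which, was not measured in these libraries, so marker levels of other cell types are given beside these sums. In stained hippocampal sections, the paper reported an unchanged number of astrocytes at this time. It also reported Ki-67 in most microglia at a later time, when their number began to recover. Markers of oligodendrocyte precursors summed to between 322 and 358 TPM in PBS and between 271 and 304 TPM in DT, with 3 of 10 genes above 0. limma called 0 of them, with 4 at an unadjusted p under 0.05, while DESeq2 called 2 lower. These were Pdgfra, their defining receptor, at a log2 fold change of -0.53 (adjusted p = 0.184 with limma and 0.00556 with DESeq2), and Gpr17 at -0.86 (adjusted p = 0.0875 with limma and 8.13e-05 with DESeq2). Markers of neural progenitors and neuroblasts summed to between 157 and 200 TPM in PBS and between 148 and 178 TPM in DT, with 2 of 11 genes above 0. Endothelial markers were at 0.733 times the PBS mean, with 0 of 10 genes above 0, and limma called 0 (5 at an unadjusted p under 0.05) and DESeq2 2, Cldn5 and Kdr. For these 3 lists the DT mean was the lower, as it was for the microglial markers, at 0.502 times the PBS mean.

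Other lists had the higher mean in DT. Border-associated macrophage markers summed to between 21.0 and 38.3 TPM in PBS and between 69.0 and 91.2 TPM in DT, with 7 of 10 genes tested and 3 called higher. Ependymal markers summed to between 596 and 734 TPM in PBS and between 785 and 1325 TPM in DT, with 8 of 8 genes above 0. limma called 0 of these, with 4 at an unadjusted p under 0.05, and DESeq2 called 1, Foxj1 (adjusted p = 0.0489). Choroid plexus markers summed to between 106 and 2031 TPM in PBS and between 1254 and 3436 TPM in DT, again with 8 of 8 above 0, 0 called by limma (5 at an unadjusted p under 0.05) and 0 by DESeq2. Ttr made up most of that sum, at a mean of 802 TPM in PBS and 2266 TPM in DT. Within PBS alone, Ttr ran from 80.2 to 1968 TPM. Of 8 markers of blood leukocytes, 6 were listed at 0 in all 6 libraries, and the sum did not exceed 7.04 TPM in any. The part of any of these cell types, or of those with the lower mean in DT, in the values of the cell cycle genes was not tested.

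The wider cell cycle machinery was read from 3 further lists of 92 genes, of which 89 were tested. limma called 0 of the 89, as did edgeR and DESeq2, while 16, 13 and 11 of them had an unadjusted p under 0.05, against 10.4%, 10.3% and 9.77% of all genes tested in either direction. Of the 16, 14 had the higher mean in DT (15.7% of the 89, against 5.91% of all genes tested). Among 28 tested genes of G2 and mitosis, 25 had a log2 fold change above 0, with a median of 0.34. The smallest p-values were those of Kif23, Kif15 and Kif2c, motor proteins of mitosis and cytokinesis. Kif23 had 1.15, 1.45 and 1.56 CPM in PBS and 3.06, 2.57 and 2.27 CPM in DT. Its groups did not overlap, and the difference on the log2 scale was 0.88 (SE 0.25, adjusted p = 0.257). For Kif15 and Kif2c it was 0.75 and 0.92 (adjusted p = 0.288 and 0.341). Kif20a, another such motor, was named after its values were seen because it ran the other way, from 7.25 CPM in PBS to 5.65 CPM in DT (adjusted p = 0.469).

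Kif18a and Nek6, genes of mitosis in neither the 40 nor the further lists, were among the 84 genes called higher, and are named after their values were seen. Kif18a, a kinesin that aligns chromosomes, had 1.98, 1.84 and 2.66 CPM in PBS and 6.02, 5.62 and 4.45 CPM in DT, on 43 to 173 reads. All DT values exceeded those of PBS, with a log2 fold change of 1.28 (SE 0.22, 95% interval 0.77 to 1.78, adjusted p = 0.0467 with limma). Nek6, a kinase with a role in spindle formation, had 28.0, 30.8 and 28.4 CPM in PBS and 40.9, 43.9 and 38.8 CPM in DT. Its groups were apart as well, at 0.50 on the log2 scale (SE 0.08, 95% interval 0.31 to 0.69, adjusted p = 0.0379 with limma). Of 16 alternatives, Kif18a was called in 4 and Nek6 in 8, and neither was called when any 1 library was left out, with adjusted p-values of 0.0546 to 0.249 and 0.0747 to 0.209 (limma).

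Among 30 genes of DNA replication, 20 lay above 0, with a median of 0.12. Clspn, which encodes the checkpoint mediator claspin, had 2.90, 1.69 and 3.12 CPM in PBS and 5.59, 4.42 and 4.62 CPM in DT. Every DT library was the higher, with a log2 fold change of 0.94 (SE 0.26, adjusted p = 0.242). Gmnn, the inhibitor of origin licensing, and Chaf1a, a subunit of the chromatin assembly factor, had 0.80 and 0.48 (adjusted p = 0.415 and 0.406).

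Genes of G1 and quiescence control were split, with 16 of 31 tested genes above 0 and a median of 0.01. Cdkn2d, which encodes the CDK4 inhibitor p19, had 7.50, 6.18 and 7.44 CPM in PBS and 9.99, 9.65 and 10.4 CPM in DT. The groups were apart, with a log2 fold change of 0.51 (SE 0.14, adjusted p = 0.215). Lin52 and Lin9, subunits of the DREAM complex, differed in sign, at -0.21 and 0.35 (adjusted p = 0.418 and 0.473). Cdkn1a, which encodes p21, had a mean of 2.28 CPM in PBS and 2.40 CPM in DT (adjusted p = 0.935), and Cdkn2a was listed at 0 in every library.

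**Figure D5:**
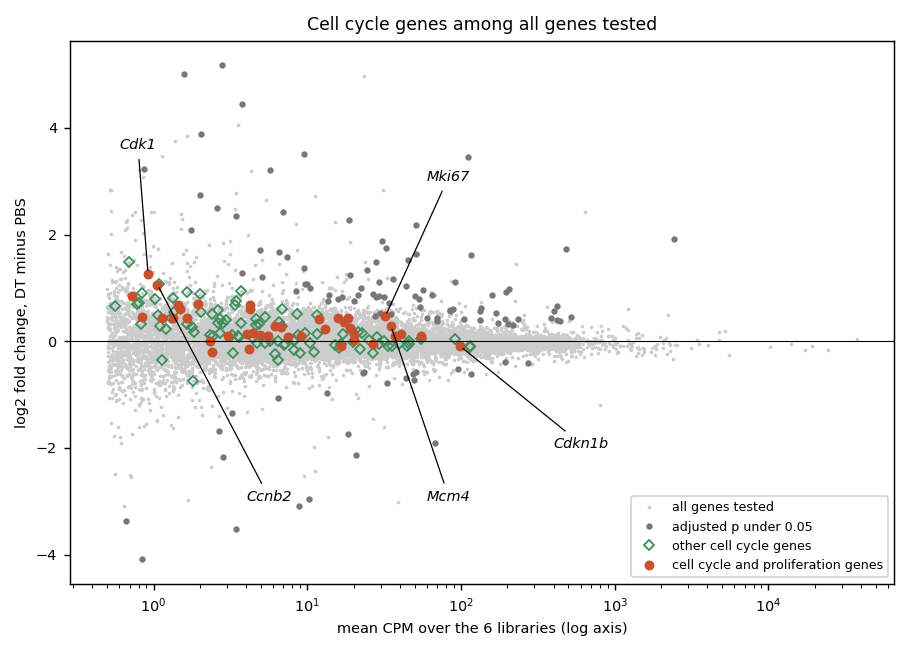
Log2 fold change, DT minus PBS, against mean CPM over the 6 libraries on a log axis, for all 15137 genes tested (light grey), genes at an adjusted p under 0.05 (dark grey), the 92 further cell cycle genes where tested (green) and the 40 cell cycle and proliferation genes (red). The red points at low CPM, such as Cdk1 at 1.26 and Ccnb2 at 1.06, lie where single genes scatter most, and Cdkn1b at the highest CPM lies at -0.09.

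Across the 40 genes, the libraries did not share a single order. DT replicate 3 was the highest of the 6 for 13 genes, DT replicate 2 for 10 and PBS replicate 3 for 9. PBS replicates 1 and 2 were each the lowest of the 6 for 14 genes, and DT replicate 2 for 0. Within PBS, replicate 3 was the highest for 24 of the 40. The summed TPM of the 40 genes was 550, 564 and 593 in PBS and 606, 624 and 622 in DT, a ratio of means of 1.09.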

How the data were processed

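RNA-seq reads of 3 PBS and 3 DT libraries were trimmed by the authors with Trim Galore 0.5.0, mapped to mm10 with HISAT2 2.1.0 using strand, freed of rDNA reads with BEDTools 2.25.0 and quantified with StringTie 1.3.5 and edgeR 3.24.3 in R 3.5.1. The authors deposited CPM values, here treated as a signal because they are relative to library sizes scaled by factors of 0.9745 to 1.02, and TPM values per gene. Their own comparison, deposited as p-values, q-values and a log2 ratio for each gene, was not used. CPM steps gave whole reads for 100% of values (within 0.0006 CPM). Dates had replaced 27 gene names, none of them described here.

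Genes with a mean of at least 0.5 CPM (15137 of 24421) were compared with limma 3.58.1 in R 4.3.3 on log2(CPM + 0.1), two-sided, with a variance trend and Benjamini-Hochberg adjustment over all of them, and called at an adjusted p under 0.05. Fold changes are on that scale, where the added 0.1 understates a ratio of low values and a single library near 0 can enlarge the difference of means. Each limma p weighs the difference of group means against the spread between libraries, with each gene's variance drawn toward a trend over all genes. Each library is a separate pool of mice, so that spread also holds differences in the sorting and preparation of the pools. edgeR 4.0.16 and DESeq2 1.42.0 were run on the recovered reads. The tests were also run on simulated data, with changes larger than those of most of the 40 genes. That run therefore cannot show how often changes of the size seen here would be missed. Read counts per library carry counting error as well as differences between the pools of mice. The 40 genes and the lists were chosen with earlier results of these data known. All 40 are named, with values per library for those with separate groups and a log2 fold change of at least 0.3 in size and for the highest gene by TPM of each role. Others were added for low reads or their pattern. Of each further list, the 3 genes with the smallest p are named. Gene coordinates are from GENCODE M21. Alternatives were pseudocounts of 0.5 and 1, no filter, a mean of 2 CPM, TPM, quantile normalization, no variance trend, a replicate block, edgeR, DESeq2 and each library left out.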

Additional observations from a re-analysis of the deposited data

How the results depend on the processing

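Under 16 alternatives, 27 of the 40 genes kept the sign of their log2 fold change. Of the other 13, 12 changed sign only when a library was left out, with log2 fold changes over those 6 omissions of Ccna2 -0.0097 to 0.20, Ccnd3 -0.07 to 0.09, Cdk2 -0.03 to 0.19, Cdk4 -0.12 to 0.0049, Tyms -0.04 to 0.35, Rrm2 -0.07 to 0.35, Bub1b -0.12 to 0.43, Aurkb -0.48 to 0.96, Cenpf -0.02 to 0.51, E2f1 -0.04 to 0.25, Foxm1 -0.47 to 0.14 and Cdkn2c -0.02 to 0.22. Aurka, at -0.00061, was 0.00087 and 0.0017 with pseudocounts of 0.5 and 1, 0.02 with TPM and 0.03 with edgeR and with DESeq2, and from -0.20 to 0.25 with a library left out. Of the 40 genes, 0 were called lower in any alternative. Called higher were between 0 and 1 with a library left out (Mki67, without PBS replicate 3) and 0 otherwise, and 0 of the further cell cycle genes were called in any. The number with a log2 fold change above 0 ranged from 29 to 35 with a library left out. The median of 0.26 was 0.13 at a mean of 2 CPM, where 30 genes remained, 0.20 with a pseudocount of 1 and between 0.19 and 0.30 with a library left out.

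Over all genes, 84 higher and 24 lower calls became 35 and 11 without a variance trend and 227 and 98 with DESeq2, and ranged from 39 to 72 and from 9 to 20 with a library left out. The cause was not tested. Same-numbered libraries correlated at 0.115, 0.0105 and 0.118 in their deviations, and unlike-numbered libraries at -0.124 to 0.0115. Replicates 1 and 3 thus stood above the unlike-numbered values and replicate 2 did not, so pairing was neither shown nor excluded. With a replicate block, 79 genes were higher and 30 lower, 0 of the 40 were called, 10 of the 40 had an unadjusted p under 0.05 and the median of the 40 stayed 0.26. The share of all genes at that unadjusted threshold was not computed for this fit. With fewer than 50 reads in any library, Cdk1, Bub1, Aurkb, Ccnb2 and Ube2c have values that a single library can shift.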
